A study of Mus musculus with 12 samples.

Results

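The genes described here encode proteins of the junctions that hold epithelial cells together and connect them: the cadherins Cdh2 and Cdh3, the catenins Ctnnb1, Ctnna1 and Ctnnd1, the gap junction protein Gja1, the tight junction scaffold Tjp1 and the claudin Cldn19. They were chosen by name, and every probe set that the platform annotation assigns to them was used. A probe set is the group of short probes on the array that together give 1 value for a transcript. The 8 genes had 22 probe sets among the 45037 on the array other than controls: 6 for Gja1, 4 for Ctnna1, 3 each for Ctnnb1 and Ctnnd1, 2 each for Cdh2 and Cdh3, and 1 each for Tjp1 and Cldn19. Of these, 20 had a mean over all arrays at or above 5.65 on the log2 scale, the 40th percentile of all probe sets, and were tested. The Cdh3 probe set 1441255_at, with a mean of 5.25, and the Ctnna1 probe set 1437275_at, with a mean of 3.92, fell below that value.

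Cadherins are membrane proteins that bind cadherins of the neighbouring cell, and their inner ends bind beta-catenin (Ctnnb1) and p120-catenin (Ctnnd1), while alpha-catenin (Ctnna1) links the complex to actin. Gap junction channels, of which connexin 43 (Gja1) is a widespread component, pass ions and small molecules between cells, and tight junctions seal the space between cells through claudins anchored on scaffolds such as ZO-1 (Tjp1). The back of the iris is covered by a double layer of pigmented epithelium whose cells are joined by such junctions. Lyst encodes a large protein that regulates the size and traffic of lysosomes and related organelles, among them the melanosomes of pigment cells. The comparison asks whether transcripts of the adhesion machinery differ in the irides of the strain that carries a Lyst mutation.

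RNA of whole adult iris was measured on 12 Affymetrix arrays, 3 for each of 4 strains, all at 60 days of age. One strain was C57BL/6J, the background of the mutants. B6-Lyst stands for B6-Lystbg-J, whose Lyst gene is mutant. B6-albino stands for B6-(Cg)TyrC-2J, whose Tyr gene, which encodes tyrosinase, is mutant. B6-D2 congenic stands for the strain B6.D2(Tryp1-Gpnmb-)/SJ, mutant in Gpnmb and in Tyrp1, which the labels write as Tryp1. Each sample pooled the 4 eyes of 2 animals, and the labels call the samples of a strain biological replicates. The sample numbers form separate runs, with C57BL/6J beside B6-Lyst in the earlier and B6-albino beside B6-D2 congenic in the later. The sources used here do not say whether the runs were processed apart. In pairs that cross them, such as B6-Lyst against B6-albino, handling and genotype cannot be told apart. All 3 mutant strains carry germline mutations, so every cell type of the iris carries them, and the tissue was not sorted. In such bulk samples, fewer cells of a type and less RNA per cell cannot be told apart.

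Pigment cell transcripts were abundant on every array: the mean of the 14 pigment epithelium and melanocyte markers on the array, of 15 listed, lay between 10.85 and 11.73 on the log2 scale. Transcripts of neighbouring tissues varied. The mean of 17 lens markers, of 19 listed, ranged from 8.04 to 10.91 in C57BL/6J, from 7.41 to 11.56 in B6-Lyst, from 11.19 to 13.09 in B6-albino and from 10.80 to 11.73 in B6-D2 congenic. The corneal keratin Krt12 was high on 3 arrays, at 12.86 on C57BL/6J replicate 1, 10.45 on B6-albino replicate 1 and 13.81 on B6-D2 congenic replicate 2, and between 5.96 and 7.12 on the others. The difference between the 3-prime and 5-prime actin control probe sets, a sign of RNA degradation, was largest on C57BL/6J replicate 3, at 4.30, with the other 11 arrays between 1.84 and 2.72. The poly-A spike controls, RNA added to each sample, averaged 7.36 to 8.16 on the C57BL/6J arrays and 4.94 to 5.95 on the arrays of the mutants, so how the C57BL/6J samples were handled and their genotype cannot be told apart. The hybridization spike controls, added later to the labelled RNA, were lowest on the 3 B6-Lyst arrays, with means of 9.67 to 9.76 against 9.99 to 10.45 on the other 9, and here too handling and genotype cannot be told apart. The 99th percentile of an array, which follows its brightest probe sets, lay between 11.55 and 11.77 in B6-Lyst, between 11.84 and 12.03 in B6-albino, between 11.67 and 12.04 in B6-D2 congenic and between 11.39 and 11.92 in C57BL/6J.

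Promoter sequences are shown for Gja1, Ctnnb1 and Tjp1, which are 3 of the 5 genes whose B6-Lyst arrays all lay below the B6-albino arrays on the representative probe set. Each is the 150 bases before the transcription start in the RefSeq table for GRCm38.p6, written 5′ to 3′ on the gene's strand; the Tjp1 entry belongs to a transcript that starts within the annotated gene. Capitals mark matches, on either strand, to TGANTCA for an AP-1 site, GGGCGG for a GC box, CCAAT for a CAAT box, TATAAA for a TATA box or CATGTG for an M-box core, the element bound by Mitf in pigment genes.
Gja1, chr10:56377150-56377299, plus strand: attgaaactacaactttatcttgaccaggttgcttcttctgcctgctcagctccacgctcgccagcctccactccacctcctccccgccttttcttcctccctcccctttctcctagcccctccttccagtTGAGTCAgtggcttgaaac
Ctnnb1, chr9:120933250-120933399, plus strand: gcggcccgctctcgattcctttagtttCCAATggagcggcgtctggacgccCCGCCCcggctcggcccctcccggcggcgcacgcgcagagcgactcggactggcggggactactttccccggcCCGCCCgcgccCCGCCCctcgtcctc
Tjp1, chr7:65371245-65371394, minus strand: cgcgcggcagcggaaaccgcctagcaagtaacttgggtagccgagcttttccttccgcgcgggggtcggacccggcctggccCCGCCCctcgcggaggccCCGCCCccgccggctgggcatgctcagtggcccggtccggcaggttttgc

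Matches were counted in the 250 bases before the start and compared with 32851 mouse promoter windows of that length. Gja1 holds 1 AP-1 match, and 6.75% of windows hold at least 1. Ctnnb1 holds 3 GC boxes and 2 CAAT boxes, of which 1 CAAT box lies in the bases shown, and Tjp1 holds 2 GC boxes. At least 1 GC box was found in 32.7% of windows and at least 1 CAAT box in 33.9%. A second RefSeq entry for Ctnnb1, not shown, starts within the annotated gene and holds 2 GC boxes, 1 TATA box and 0 CAAT boxes. None of the 3 entries shown holds the letters of the M-box core, which 12.3% of windows hold, or of the TATA box, which 12.4% hold. The GC box of Ctnnb1 and Tjp1 was the only match that 2 of the 3 promoters shared. The share of G and C in the 250 bases was 50.0% for Gja1, 74.8% for Ctnnb1 and 63.2% for Tjp1.

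None of the 8 junction genes passed the test for a difference between B6-Lyst and C57BL/6J. In limma's moderated test with Benjamini-Hochberg adjustment over all 27022 tested probe sets, 0 of the 20 member probe sets had an adjusted p under 0.05, where 2.53% of all tested probe sets did. At an unadjusted p under 0.05 the count was 5 of 20, against 4712 of all 27022. By representative probe set it was 1 of 8, against 2179 of 13190 genes. The differences of the representative probe sets, the brightest of each gene, ran from -0.32 for Tjp1 to 0.01 for Cldn19, with standard errors of 0.11 to 0.27, and their 95% intervals all lay between -0.77 and 0.39. For these 8 probe sets a change of more than 1.71-fold in either direction thus lay outside each interval. Over all 20 member probe sets the intervals reached from -0.96, on a Ctnna1 probe set, to 0.82, on a Cdh2 probe set, or 1.94-fold. These intervals are unadjusted. Of the 20 probe sets 16 had a lower mean in B6-Lyst, with a median difference of -0.18, while 14218 of the 27022 tested probe sets did, with a median of -0.02.

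The other pairs of strains gave the same count of calls. The shares of all tested probe sets called were 0.348% for B6-albino against C57BL/6J, 0.0407% for B6-D2 congenic against C57BL/6J, 1.84% for B6-Lyst against B6-albino, 0.933% for B6-Lyst against B6-D2 congenic and 0.0851% for B6-albino against B6-D2 congenic, and 0 of 20 member probe sets were called in each. The member counts at an unadjusted p under 0.05 in limma's test were 3, 1, 11, 3 and 0 of 20 in those pairs. Over all 27022 tested probe sets the counts were 5246, 4818, 5160, 2622 and 2294. By representative probe set they were 0, 0, 4, 1 and 0 of 8, against 2692, 2299, 2530, 1450 and 848 of 13190 genes. Without the intensity trend in limma's prior the adjusted member counts were again 0. The F test for any difference among the 4 strains called 2.09% of all probe sets and 0 of the 20, with adjusted p from 0.0789 for the Cdh2 probe set 1449244_at to 0.996. B6-Lyst had the lowest mean of the 4 strains for 6 of the 8 representative probe sets, namely those of Cdh2, Ctnnb1, Ctnna1, Ctnnd1, Gja1 and Tjp1. This held in the deposited values and after scaling to a common 75th percentile. After quantile normalization it held for 4, without Ctnnb1 and Tjp1. Of the 20 tested probe sets B6-Lyst was lowest on 12, 12 and 10 in these settings. Of all 13190 genes, by representative probe set in the deposited values, 6590 were lower in B6-Lyst than in C57BL/6J. Against B6-albino 7935 were lower, and against B6-D2 congenic 8614. How many of them had B6-Lyst as the lowest of the 4 strains was not counted. The B6-Lyst arrays were also the lowest in the hybridization spike controls, whose part in these orders was not tested. No neighbours in any of these orders of strains differed past the threshold. The pairs share samples, so their values are given side by side and not as separate evidence.

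**Figure D1:**
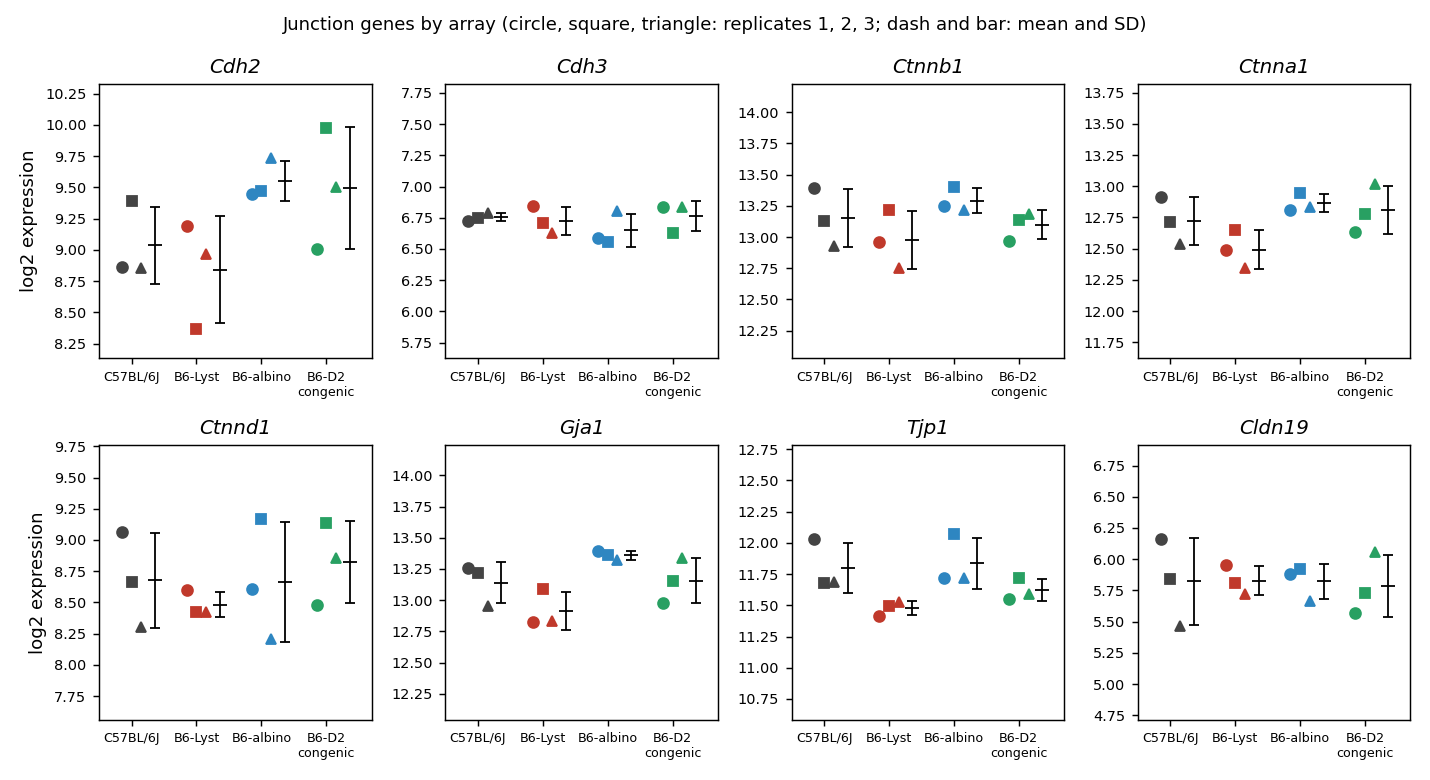
Log2 expression of the representative probe set of each of the 8 genes on each of the 12 arrays, by strain; circles, squares and triangles are replicates 1, 2 and 3, and the dash and bar are the mean and SD of 3 arrays. The B6-Lyst arrays of Tjp1, between 11.41 and 11.52, lie below all other arrays of that probe set, while Cdh3 and Cldn19 overlap in all 4 strains.

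Cdh2, N-cadherin, the cadherin of nerve, lens and mesenchymal cells, varied between arrays of the same strain. Its probe set 1418815_at read 8.86, 9.39 and 8.85 in C57BL/6J, 9.19, 8.37 and 8.96 in B6-Lyst, 9.45, 9.47 and 9.74 in B6-albino, and 9.00, 9.98 and 9.50 in B6-D2 congenic. All 3 B6-Lyst arrays lay below all 3 B6-albino arrays, and B6-Lyst and C57BL/6J overlapped. The means ± SD (n = 3) in the order of level were 9.55 ± 0.16 in B6-albino, 9.49 ± 0.49 in B6-D2 congenic, 9.04 ± 0.31 in C57BL/6J and 8.84 ± 0.43 in B6-Lyst. The difference between B6-Lyst and C57BL/6J was -0.19 (SE 0.27, limma adjusted p = 0.763), and that between B6-Lyst and B6-albino was -0.71 (SE 0.27, adjusted p = 0.182).

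The other Cdh2 probe set, 1449244_at, placed C57BL/6J lowest. It read 8.22, 8.34 and 7.46 in C57BL/6J, 8.57, 7.94 and 8.38 in B6-Lyst, 9.06, 9.00 and 9.04 in B6-albino, and 8.59, 9.09 and 9.24 in B6-D2 congenic. The B6-albino arrays all lay above those of C57BL/6J and of B6-Lyst, and differed among themselves by less than in any other strain. The difference between B6-albino and C57BL/6J was 1.03 (SE 0.24, limma adjusted p = 0.0816), a 2.04-fold difference that did not pass the threshold, and for B6-D2 congenic against C57BL/6J it was 0.97 (SE 0.24, adjusted p = 0.13). B6-Lyst against C57BL/6J gave 0.29, the opposite sign from the first probe set (SE 0.24, adjusted p = 0.587).

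Cdh2 followed the lens transcripts across arrays. Over the 12 arrays, the representative Cdh2 probe set and the lens marker mean had a Pearson r of 0.85 (permutation p = 0.00026, 0.0076 after adjustment over the 80 relations computed between the 8 genes and 10 array measures) and a Spearman rho of 0.86 (permutation p = 0.00066, adjusted 0.0132). Leaving out the 2 arrays farthest from the median lens level, B6-Lyst replicate 2 and C57BL/6J replicate 3, gave r = 0.71, and r was 0.80 after each strain's mean was taken out. The lowest Cdh2 value, 8.37, and the lowest lens mean, 7.41, were both on B6-Lyst replicate 2. The fit was repeated with the marker means of lens, retina and cornea as covariates. For the representative Cdh2 probe set, the difference between B6-Lyst and B6-albino went from -0.71 to -0.23. That between B6-albino and C57BL/6J went from 0.52 to 0.03, while B6-Lyst against C57BL/6J stayed at -0.20. On 1449244_at, B6-Lyst against B6-albino went from -0.74 to -0.33 and B6-albino against C57BL/6J from 1.03 to 0.64. B6-Lyst against C57BL/6J went from 0.29 to 0.32 on that probe set. The part of lens RNA in the Cdh2 values was not tested beyond this fit.

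Cdh3, P-cadherin, the cadherin of pigment and basal epithelial cells, showed the narrowest spread of the 8 genes. Its probe set 1426673_at read 6.73, 6.75 and 6.79 in C57BL/6J, 6.85, 6.71 and 6.63 in B6-Lyst, 6.58, 6.56 and 6.80 in B6-albino, and 6.84, 6.63 and 6.83 in B6-D2 congenic. The 4 strains overlapped, with means from 6.77 in B6-D2 congenic through 6.75 in C57BL/6J and 6.73 in B6-Lyst to 6.65 in B6-albino. The difference between B6-Lyst and C57BL/6J was -0.03 (SE 0.11, limma adjusted p = 0.931, 95% interval -0.27 to 0.22). The untested second probe set differed by -0.02 between these strains. The tested probe set was dim, with a mean of 6.72 beside the filter value of 5.65.

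Ctnnb1, beta-catenin, which binds cadherin tails and also acts in Wnt signalling, had B6-Lyst lowest on its representative probe set 1420811_a_at. The values were 13.39, 13.13 and 12.93 in C57BL/6J, 12.96, 13.21 and 12.75 in B6-Lyst, 13.25, 13.40 and 13.21 in B6-albino, and 12.97, 13.14 and 13.19 in B6-D2 congenic. B6-Lyst overlapped C57BL/6J and B6-D2 congenic, and its highest array, replicate 2, equalled the lowest B6-albino array to the decimals shown and lay just below it. The order of means was B6-albino at 13.29 ± 0.10, C57BL/6J at 13.15 ± 0.23, B6-D2 congenic at 13.10 ± 0.11 and B6-Lyst at 12.97 ± 0.23 (SD, n = 3). The difference between B6-Lyst and C57BL/6J was -0.18 (SE 0.16, limma adjusted p = 0.614) and that between B6-Lyst and B6-albino -0.32 (SE 0.16, adjusted p = 0.301).

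The other Ctnnb1 probe sets did not share this order. The probe set 1450008_a_at read 10.39, 9.48 and 8.91 in C57BL/6J, a span wider than that of any other strain, and 9.95, 9.52 and 9.28 in B6-Lyst, 9.59, 9.83 and 9.12 in B6-albino, and 9.25, 9.40 and 9.11 in B6-D2 congenic. The probe set 1430533_a_at also spanned most in C57BL/6J, from 7.13 to 8.50. On both, C57BL/6J replicate 1 was the highest and C57BL/6J replicate 3, the array with the largest actin 3-prime to 5-prime difference, the lowest of the 12. The differences between B6-Lyst and C57BL/6J were -0.01 (SE 0.32) and -0.10 (SE 0.29), with limma adjusted p of 0.994 and 0.895. With the actin difference as a covariate they became -0.35 and -0.41, with adjusted p of 0.328 and 0.217.

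Ctnna1, alpha-catenin, the link from the cadherin complex to actin, had B6-Lyst lowest on all 3 tested probe sets. The representative, 1437807_x_at, read 12.92, 12.71 and 12.54 in C57BL/6J, 12.49, 12.65 and 12.34 in B6-Lyst, 12.81, 12.95 and 12.83 in B6-albino, and 12.63, 12.78 and 13.02 in B6-D2 congenic. The B6-Lyst arrays lay below all B6-albino arrays and overlapped those of the other strains, and the means descended from 12.86 ± 0.07 in B6-albino through 12.81 ± 0.19 in B6-D2 congenic and 12.72 ± 0.19 in C57BL/6J to 12.49 ± 0.15 in B6-Lyst (SD, n = 3). The differences were -0.23 against C57BL/6J (SE 0.15, limma adjusted p = 0.462) and -0.37 against B6-albino (SE 0.15, adjusted p = 0.199). The second probe set, 1448149_at, gave -0.13 and -0.43 for the same pairs.

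The third, 1436631_at, carried the lowest Lyst difference from C57BL/6J of all member probe sets. It read 7.99, 7.75 and 7.73 in C57BL/6J, 7.30, 7.34 and 7.32 in B6-Lyst, 7.90, 8.14 and 7.78 in B6-albino, and 7.17, 7.38 and 8.14 in B6-D2 congenic. The B6-Lyst arrays, with an SD of 0.02, lay below all C57BL/6J and B6-albino arrays, but not below those of B6-D2 congenic. The difference from C57BL/6J was -0.50, 1.41-fold (SE 0.21, limma adjusted p = 0.247), and from B6-albino -0.62 (SE 0.21, adjusted p = 0.15). Without B6-D2 congenic replicate 3, whose value of 8.14 set the spread of that strain, the adjusted p was 0.0762 against C57BL/6J and 0.0393 against B6-albino.

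Ctnnd1, p120-catenin, which holds cadherins at the cell surface, overlapped among all strains on its representative probe set 1437448_s_at. The values were 9.06, 8.66 and 8.30 in C57BL/6J, 8.60, 8.42 and 8.42 in B6-Lyst, 8.61, 9.17 and 8.21 in B6-albino, and 8.48, 9.14 and 8.85 in B6-D2 congenic. B6-Lyst had the smallest SD, 0.10, and the lowest mean, 8.48, after 8.82 in B6-D2 congenic, 8.68 in C57BL/6J and 8.66 in B6-albino. The difference from C57BL/6J was -0.20 (SE 0.26, limma adjusted p = 0.748). The probe set 1445830_at gave 0.03 and 1422450_at gave -0.22, with adjusted p of 0.942 and 0.614. On 1422450_at the B6-Lyst arrays, from 5.89 to 6.13, lay below those of B6-D2 congenic, from 6.27 to 6.79, with a difference of -0.47 (SE 0.20, adjusted p = 0.482).

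Gja1, connexin 43, had 6 probe sets, and 4 of them placed B6-Lyst lowest. The representative, 1437992_x_at, read 13.25, 13.21 and 12.95 in C57BL/6J, 12.83, 13.09 and 12.83 in B6-Lyst, 13.39, 13.36 and 13.32 in B6-albino, and 12.98, 13.15 and 13.34 in B6-D2 congenic. Every B6-Lyst array lay below every B6-albino array, and B6-Lyst overlapped C57BL/6J and B6-D2 congenic. The means were 13.36 ± 0.04 in B6-albino, 13.16 ± 0.18 in B6-D2 congenic, 13.14 ± 0.16 in C57BL/6J and 12.91 ± 0.15 in B6-Lyst (SD, n = 3). The difference was -0.22 from C57BL/6J (SE 0.14, limma adjusted p = 0.444) and -0.44 from B6-albino, 1.36-fold (SE 0.14, adjusted p = 0.126).

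On 3 further Gja1 probe sets the B6-Lyst arrays lay below all C57BL/6J arrays as well. The probe set 1415800_at read 12.76, 12.66 and 12.59 in C57BL/6J and 12.31, 12.56 and 12.17 in B6-Lyst, with a difference of -0.32 (SE 0.13, limma adjusted p = 0.222). The probe sets 1438945_x_at and 1438650_x_at gave -0.28 and -0.24, with adjusted p of 0.261 and 0.279. The lowest adjusted p of any member between B6-Lyst and B6-albino was 0.0901, for 1438945_x_at at -0.44 (SE 0.12). The remaining probe sets stood apart from these: 1438973_x_at gave 0.01 against C57BL/6J, and 1415801_at, highest on C57BL/6J replicate 1 at 7.68, gave -0.14 with an SE of 0.26. Probe sets whose names end in x hold probes that can also match other transcripts, and 4 of the 6 for Gja1 are of that kind. The representative Ctnna1 probe set, 1437807_x_at, is of that kind as well.

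Tjp1, the ZO-1 scaffold shared by tight and adherens junctions, was the representative probe set with the lowest B6-Lyst difference from C57BL/6J. Its probe set 1417749_a_at read 12.03, 11.68 and 11.69 in C57BL/6J, 11.41, 11.49 and 11.52 in B6-Lyst, 11.72, 12.07 and 11.72 in B6-albino, and 11.55, 11.72 and 11.59 in B6-D2 congenic. The 3 B6-Lyst arrays were the lowest of the 12, which held for no other representative probe set. The order of means was B6-albino at 11.84 ± 0.20, C57BL/6J at 11.80 ± 0.20, B6-D2 congenic at 11.62 ± 0.09 and B6-Lyst at 11.48 ± 0.06 (SD, n = 3). The difference was -0.32, 1.25-fold, from C57BL/6J (SE 0.14, limma adjusted p = 0.261), -0.36 from B6-albino (SE 0.14, adjusted p = 0.193) and -0.14 from B6-D2 congenic (SE 0.14, adjusted p = 0.759). After quantile normalization the difference from B6-D2 congenic turned to 0.04.

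Cldn19, a claudin of the retinal pigment epithelium and of kidney tubules, lay close to the filter value. Its probe set 1425727_at read 6.16, 5.84 and 5.46 in C57BL/6J, 5.95, 5.81 and 5.72 in B6-Lyst, 5.88, 5.92 and 5.66 in B6-albino, and 5.57, 5.73 and 6.06 in B6-D2 congenic. The strains overlapped throughout, and their means lay between 5.79 in B6-D2 congenic and 5.83 in B6-Lyst. The difference between B6-Lyst and C57BL/6J was 0.01 (SE 0.17, limma adjusted p = 0.989), with a 95% interval from -0.37 to 0.38.

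**Figure D2:**
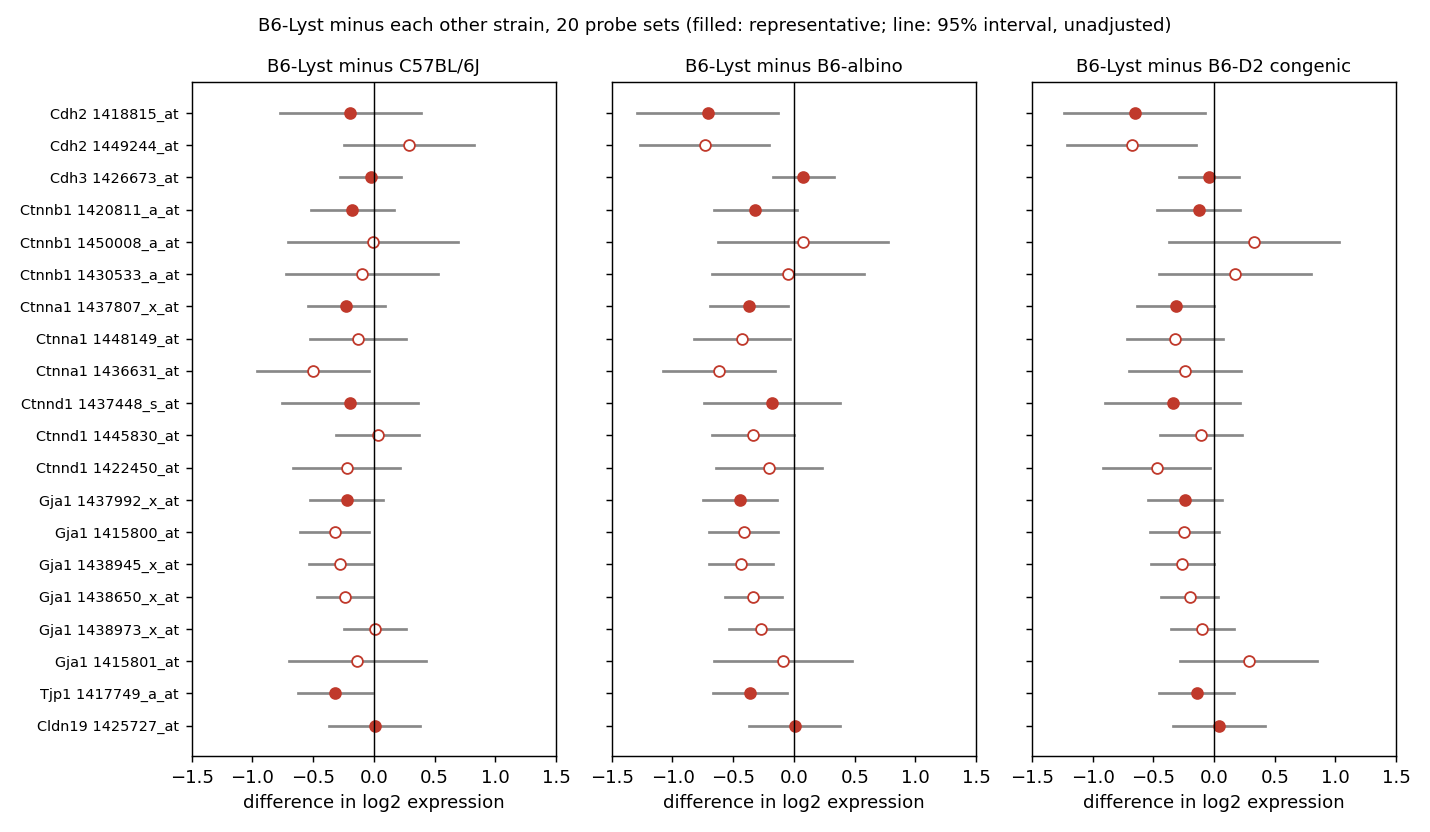
Difference in log2 expression of B6-Lyst from each other strain for the 20 tested probe sets of the 8 genes; points are filled for the representative probe set of a gene, and lines are unadjusted 95% intervals from limma. Most points lie left of 0, 16 of 20 against C57BL/6J, 17 against B6-albino and 16 against B6-D2 congenic, and none passed the adjusted threshold. Of all 27022 tested probe sets, 14218, 16105 and 16049 were lower in B6-Lyst in these pairs.

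The B6-Lyst and B6-albino arrays were apart on 13 of the 20 member probe sets, where 30.2% of all tested probe sets showed no overlap between these strains. The corresponding counts were 5 of 20 against C57BL/6J, beside 22.8% of all, and 3 of 20 against B6-D2 congenic, beside 17.2%; B6-albino against C57BL/6J gave 7 of 20 beside 23.5%, B6-D2 congenic against C57BL/6J 1 of 20 beside 18.1%, and B6-albino against B6-D2 congenic 3 of 20 beside 14.2%. Several probe sets measure the same gene, 6 of them Gja1. By representative probe set, B6-Lyst was apart for 5 of 8 genes from B6-albino, 1 from C57BL/6J and 1 from B6-D2 congenic. The shares of all 13190 genes were 30.0%, 22.1% and 19.1%. B6-albino against C57BL/6J gave 2 of 8 beside 24.8%, B6-D2 congenic against C57BL/6J 0 beside 18.6%, and B6-albino against B6-D2 congenic 2 beside 12.4%. By either count, the member share stood farthest above the background between B6-Lyst and B6-albino and farthest below it between B6-D2 congenic and C57BL/6J. Between B6-Lyst and B6-albino the median member difference was -0.34, and the median over all tested probe sets -0.06. This pair crosses the separate runs of sample numbers, and the part of handling in its differences was not tested.

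Brightness moved with this difference. Of the 1004 tested probe sets with a mean above 11, 89.1% were lower in B6-Lyst than in B6-albino, with a median of -0.27 and quartiles of -0.38 and -0.14. The 7 member probe sets in that range, of Ctnnb1, Ctnna1, Gja1 and Tjp1, lay between -0.44 and -0.32, with a median of -0.41. After quantile normalization, which gives every array the same distribution of values, the median of the 1004 was -0.02 and that of the 7 members -0.15, with a range from -0.20 to -0.03. Bright probe sets as a whole and the bright members thus shared the direction, and the larger part of the members' difference was not present after that step; the limit of 11 was set after the values were seen. The median of the 13 dimmer members went from -0.20 to -0.16. Among them, Cdh2 1449244_at went from -0.74 to -0.63 and Ctnna1 1436631_at from -0.62 to -0.55, while Gja1 1438650_x_at went from -0.34 to -0.16 and Gja1 1438973_x_at from -0.27 to -0.16.

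In B6-Lyst against C57BL/6J the bright probe sets as a whole were not shifted. The median of the same 1004 was 0.01 between B6-Lyst and C57BL/6J, with quartiles of -0.15 and 0.20. The 7 bright members had a median of -0.23 in the deposited values and -0.31 after quantile normalization, from -0.41 to -0.20. The lowest adjusted p values of that setting were 0.0508 for Ctnna1 1437807_x_at and 0.055 for Gja1 1415800_at, so no member was called there either. In B6-albino against C57BL/6J, 6 of 20 members were lower in the deposited values, with a median of 0.11, and 12 of 20 after quantile normalization, with a median of -0.08. Among the members the turn lay in the bright ones. The 7 had a range of 0.04 to 0.30 in the deposited values, with a median of 0.14. After quantile normalization their range reached from -0.26 to just above 0, with a median of -0.22. The 1004 bright probe sets as a whole moved the same way in this pair, from a median of 0.26, with 13.8% lower, to -0.02. The median of the 13 dimmer members was 0.00 before and after quantile normalization.

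**Figure D3:**
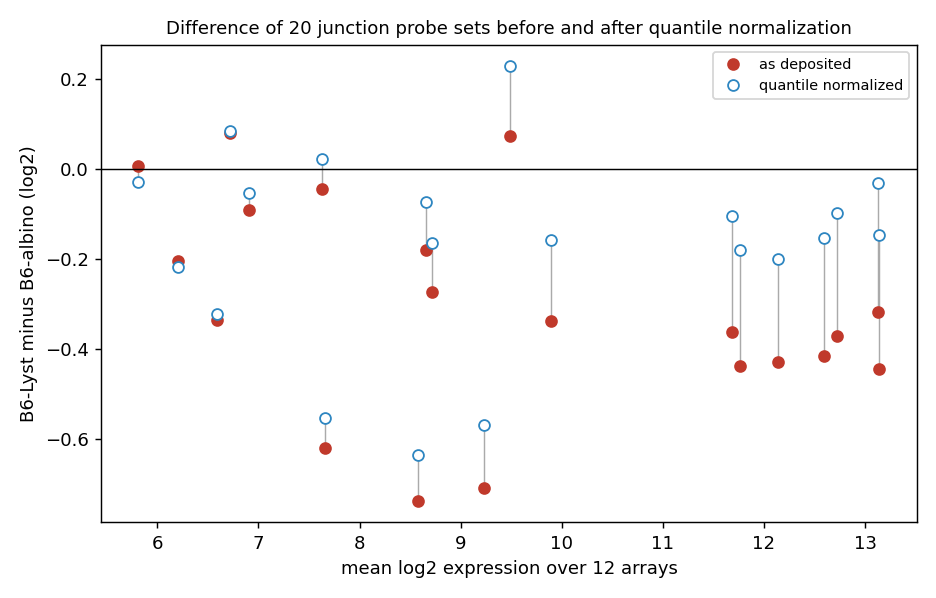
Difference between B6-Lyst and B6-albino of the 20 tested member probe sets on the y axis (log2) against their mean over the 12 arrays on the x axis (log2); filled points are the deposited values, open points the same probe sets after quantile normalization, joined by a line. The probe sets with means above 11 lie between -0.44 and -0.32 before and between -0.20 and -0.03 after that step.

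The bright members also moved together across arrays. Over the 12 arrays the representative probe sets of Ctnna1 and Gja1 had a Pearson r of 0.92, those of Ctnna1 and Ctnnb1 0.89 and those of Ctnnb1 and Gja1 0.87, given as descriptions since these probe sets share arrays and brightness. Their relation to the array's 99th percentile was as close: r was 0.86 for Ctnna1 (permutation p = 0.00036, adjusted 0.0076; rho 0.90, permutation p = 0.00019, adjusted 0.0076), 0.81 for Ctnnb1 (p = 0.00128, adjusted 0.016; rho 0.83, p = 0.00162, adjusted 0.0209) and 0.79 for Gja1 (p = 0.0018, adjusted 0.016; rho 0.83, p = 0.00127, adjusted 0.0203). Without the 2 arrays farthest from the median percentile, C57BL/6J replicate 3 and B6-Lyst replicate 3, r was 0.88, 0.73 and 0.76. Within strains, with each strain's mean taken out, r was 0.93, 0.89 and 0.85. By their means, these probe sets are themselves among the brightest, at percentiles of 99.78 for Ctnna1, 99.91 for Ctnnb1 and 99.91 for Gja1. The relation of other bright probe sets to this measure was not counted, so the p values do not set the members apart from them.

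The pigment marker mean followed the same genes. Its r was 0.86 with Ctnnb1 (permutation p = 0.00038, adjusted 0.0076; rho 0.90, permutation p = 0.00018, adjusted 0.0076), 0.86 with Gja1 (p = 0.00033, adjusted 0.0076; rho 0.87, p = 0.00046, adjusted 0.0123) and 0.83 with Ctnna1 (p = 0.0009, adjusted 0.0144; rho 0.82, p = 0.00183, adjusted 0.0209). Leaving out C57BL/6J replicate 3 and B6-albino replicate 1 gave 0.93, 0.86 and 0.93, and the within-strain values were 0.87, 0.84 and 0.82. The pigment markers themselves are bright, so an array's share of pigment cells and its brightness were not separated by these relations. With the pigment marker mean Tjp1, Cdh2, Cdh3, Ctnnd1 and Cldn19 had no relation that passed adjustment.

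Other marker lists gave 7 further gene and list pairs that passed adjustment by r or rho. Cldn19 followed the smooth muscle mean, with r of 0.80 (permutation p = 0.0018, adjusted 0.016) and rho of 0.78 (permutation p = 0.00373, adjusted 0.0373), and r of 0.72 without C57BL/6J replicate 1 and B6-albino replicate 3. Ctnnb1 and Ctnnd1 followed the stroma mean, with r of 0.81 (permutation p = 0.00147, adjusted 0.016) and 0.79 (p = 0.00207, adjusted 0.0166), rho of 0.78 (permutation p = 0.00463, adjusted 0.0386) and 0.76 (p = 0.00537, adjusted 0.0391), and r of 0.66 and 0.61 without C57BL/6J replicate 1 and B6-albino replicate 2. Ctnnd1 followed the Schwann cell mean with r of 0.79 (permutation p = 0.00257, adjusted 0.0187) and rho of 0.68 (permutation p = 0.0189, adjusted 0.101), and r of 0.67 without C57BL/6J replicate 1 and B6-albino replicate 3. Ctnnd1 followed the cornea mean with r of 0.71 (permutation p = 0.00779, adjusted 0.0445) and rho of 0.77 (permutation p = 0.00483, adjusted 0.0386), but r was 0.43 without B6-D2 congenic replicate 2 and C57BL/6J replicate 1, so that relation rests on these arrays. Tjp1 followed the stroma mean with r of 0.76 (permutation p = 0.00644, adjusted 0.0429) but rho of 0.52 (permutation p = 0.0853, adjusted 0.262), and r was 0.11 without C57BL/6J replicate 1 and B6-albino replicate 2. Cldn19 had a stroma rho of 0.75 (permutation p = 0.00713, adjusted 0.0475) with r of 0.69 (permutation p = 0.0123, adjusted 0.0642) and 0.54 without the same arrays. It also had an r of 0.73 with the 99th percentile (permutation p = 0.00754, adjusted 0.0445), with rho of 0.71 (permutation p = 0.0118, adjusted 0.0673) and r of 0.56 without C57BL/6J replicate 3 and B6-Lyst replicate 3. With each strain's mean taken out, r for the pairs in this paragraph lay between 0.66 and 0.95. Cldn19 lay close to the filter value, at a mean of 5.81, and its smooth muscle r was 0.63 on the 9 arrays of the mutants. No relation of Cdh3 passed adjustment.

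**Figure D4:**
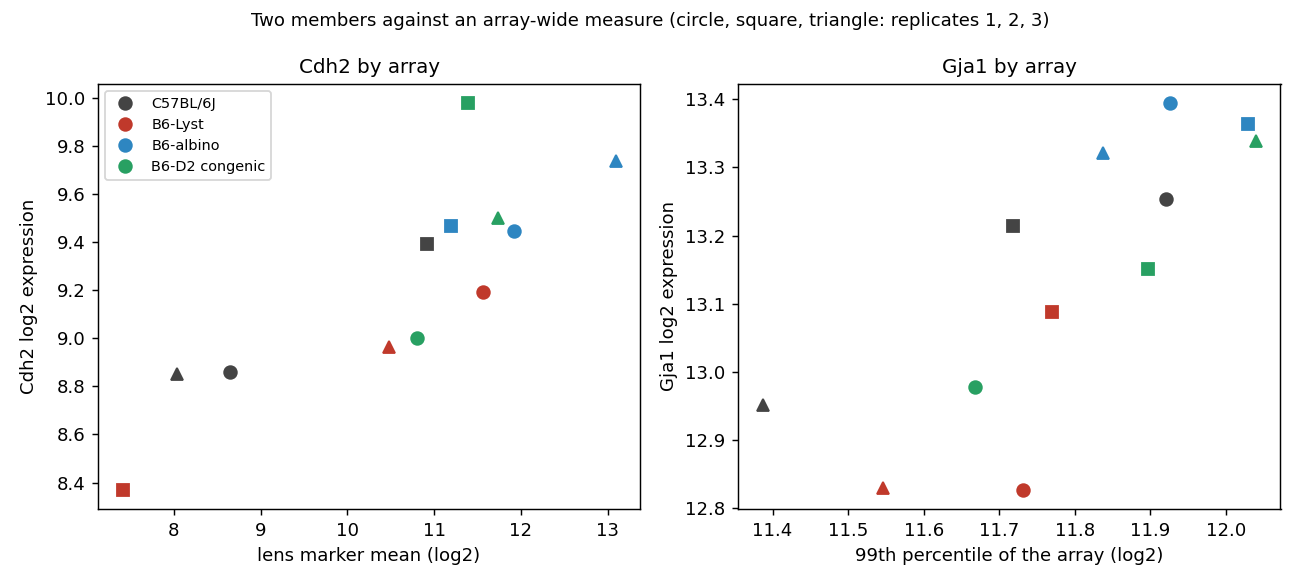
Left, log2 expression of Cdh2 (y axis) against the mean of the lens markers (x axis, log2) on the 12 arrays; right, Gja1 (y axis) against the 99th percentile of the array (x axis, log2); colours are strains, and circles, squares and triangles are replicates 1, 2 and 3. Cdh2 is higher where the lens markers are, with r of 0.85, and Gja1 where the 99th percentile is, with r of 0.79.

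The tested genes whose representative probe sets were most like each member over the 12 arrays were as follows, with Pearson r given as a description. Mtmr3, a phosphoinositide phosphatase, and Hunk, a kinase, had r of 0.98 and 0.98 with Ctnna1, and Pcnp and the RNA-binding protein gene Hnrnpk 0.97 and 0.96 with Gja1. Rtn4, a reticulon of the endoplasmic reticulum, and Golga7 had 0.95 and 0.94 with Ctnnb1. Ptprf, a receptor phosphatase, and Cryab, a lens crystallin, had 0.94 and 0.89 with Cdh2. Pcgf3 and Cav1, the caveolin of membrane pits, had 0.94 and 0.93 with Tjp1, Zfp410 and Lars 0.93 and 0.91 with Ctnnd1, Rnd2 and Mbd3 0.95 and 0.94 with Cldn19, and Dnajc22 and Ccdc69 0.87 and 0.85 with Cdh3. Cryab stands on the lens list.

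Further genes were taken from 4 lists, for adherens, tight and gap junctions and for desmosomes. Of these, 98 genes were listed, 88 were on the array and 64 were tested, 1 probe set each. In B6-Lyst against C57BL/6J, 0 of 20 adherens junction genes, 0 of 29 tight junction genes and 0 of 8 desmosome genes were called in limma's test, with 5, 4 and 0 at an unadjusted p under 0.05. Their median differences were -0.05, -0.08 and -0.36, beside -0.02 over all tested probe sets and 0.00 over the representative probe sets of all 13190 genes. Among the 7 tested genes of the gap junction list, which holds pannexins beside connexins, 1 was called higher and 1 lower. The higher was the pannexin gene Panx1 and the lower the connexin gene Gjc1, so no connexin gene was called higher. Their median was -0.28, and 4 had an unadjusted p under 0.05. Of all 13190 genes, by representative probe set, 2179 had an unadjusted p under 0.05 in this pair. In the other 5 pairs the only call among the 64 was Panx1 in B6-Lyst against B6-albino.

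Panx1, pannexin 1, a channel that releases ATP from many cell types including macrophages, rose in B6-Lyst. Its probe set 1416379_at read 6.86, 6.67 and 6.41 in C57BL/6J, 7.81, 7.69 and 7.10 in B6-Lyst, 6.69, 6.81 and 6.38 in B6-albino, and 6.95, 6.84 and 7.07 in B6-D2 congenic. All B6-Lyst arrays lay above all other arrays. The difference was 0.89, 1.85-fold, from C57BL/6J (SE 0.19, limma adjusted p = 0.0365) and 0.91, 1.88-fold, from B6-albino (SE 0.19, adjusted p = 0.0387), and 0.58 from B6-D2 congenic (SE 0.19, adjusted p = 0.349). The first call ended without B6-Lyst replicate 1 or 2, without C57BL/6J replicate 2 or 3, or without replicate 1 of B6-albino or of B6-D2 congenic, with adjusted p from 0.0529 to 0.17. The second ended without any B6-albino array, without replicate 1 or 2 of B6-Lyst or of B6-D2 congenic, or without C57BL/6J replicate 2, with adjusted p from 0.0523 to 0.176. The mean of 19 macrophage markers, of 20 listed, was between 9.97 and 10.21 on the B6-Lyst arrays and between 7.38 and 8.05 on all others, and its part in the Panx1 difference was not tested. Lens, retina and cornea marker covariates ended both Panx1 calls (limma adjusted p = 0.0612 and 0.194), as did leaving out the 3 arrays with high Krt12 (0.0718 and 0.131) and fitting only the 6 arrays of each pair (0.118 and 0.0626).

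Gjc1, connexin 45, fell in B6-Lyst against C57BL/6J on 1 of its 2 tested probe sets. The probe set 1449094_at read 7.86, 7.97 and 8.06 in C57BL/6J, 7.38, 7.30 and 7.07 in B6-Lyst, 7.28, 7.80 and 7.37 in B6-albino, and 7.51, 7.37 and 7.29 in B6-D2 congenic. The C57BL/6J arrays lay above those of each mutant strain, and the mutants overlapped one another. The difference between B6-Lyst and C57BL/6J was -0.71, 1.64-fold (SE 0.15, limma adjusted p = 0.0334), and the other mutants gave -0.48 and -0.57, with adjusted p of 0.134 and 0.142. Leaving out any B6-Lyst array or C57BL/6J replicate 2 or 3 ended the call, with adjusted p from 0.0703 to 0.123, and the call was also lost with the tissue marker means as covariates (limma adjusted p = 0.0828), without the 3 arrays with high Krt12 (0.0711), with only the 6 arrays of the pair (0.0718) and with the replicate block (0.055). The second probe set, 1447787_x_at, gave -0.05 (SE 0.38, adjusted p = 0.958).

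Some partner genes that were not called came near the threshold; they were named after their values were seen. Cldn1, a claudin of epithelial tight junctions, read 8.05, 9.01 and 8.97 in C57BL/6J and 7.14, 8.04 and 6.66 in B6-Lyst, each below all C57BL/6J arrays. Its difference was -1.40 (SE 0.34, limma adjusted p = 0.0563). Plekha7, which ties p120-catenin to microtubules, gave -0.66 (SE 0.18, adjusted p = 0.081), Pkp4, a relative of p120-catenin, -0.67 (SE 0.20, adjusted p = 0.1), and Cgn, cingulin of the tight junction, -0.75 (SE 0.22, adjusted p = 0.103). In B6-albino against C57BL/6J, Arvcf, another relative of p120-catenin, gave 1.51 (SE 0.33, adjusted p = 0.0692). Its means rose from 6.90 in C57BL/6J through 7.59 in B6-Lyst and 7.95 in B6-D2 congenic to 8.42 in B6-albino. The lens marker means had the same order, at 9.20, 9.82, 11.31 and 12.07, and the relation of Arvcf to them was not tested. Gja3, the connexin 46 of lens fibres, which also stands on the lens list, had its highest mean in B6-albino, 10.75, followed by 9.88 in B6-D2 congenic, 7.91 in B6-Lyst and 6.25 in C57BL/6J.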

How the data were processed

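Per the labels' protocols, irides were dissected in buffered saline, and their total RNA was purified on columns and treated with DNase, and biotinylated cRNA was made by the Affymetrix protocol. Each array has 1 log2 value for each probe set, as deposited. The log2 scale was read from the values. The authors' background correction, normalization, summary method and centring were not given in the sources used here. Values were used as deposited, with column medians from 6.05 to 6.14. The number of arrays limits the precision.

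Symbols came from the platform annotation and were updated through RefSeq (GRCm38.p6): of 45037, 34945 had 1 symbol, 932 several and 9160 none. The 64 controls were left out. Probe sets with a mean at or above the 40th percentile (5.65) were tested with limma 3.58.1 in R 4.3.3, as 1 linear model with a mean per strain over all 12 arrays, an intensity trend in the prior and Benjamini-Hochberg adjustment over 27022 probe sets for each of 6 pairs, two-sided, called at an adjusted p under 0.05. Intervals are at 95%. The brightest probe set represents a gene, which gave 13190 genes. The pipeline was tested on simulated data. Permutation tests of correlations used 100000 resamples of all 12 arrays without regard to strain, so differences between strains enter their p values. The r with strain means taken out has no p.

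Named genes were the 8 members, the junction partners called in a pair (at most 3 per list and direction), and the 2 genes most like each member. The members, the gene lists and the tests were chosen with earlier results of these data known. The alternatives tried were 2 other filters, 2 other scalings, no intensity trend, a replicate block, tissue marker or RNA quality covariates, leaving out the 3 arrays with high Krt12 or each array in turn, and fits of only 6 arrays.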

Additional observations from a re-analysis of the deposited data

How the results depend on the processing

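Of 22 alternative settings, all gave 0 calls among the junction genes in B6-Lyst, B6-albino or B6-D2 congenic against C57BL/6J, in B6-Lyst against B6-D2 congenic and in B6-albino against B6-D2 congenic. In B6-Lyst against B6-albino the RNA quality covariate gave 3 calls, Cdh2 1449244_at at -0.73 (limma adjusted p = 0.0386), Gja1 1437992_x_at at -0.44 (0.0486) and Gja1 1438945_x_at at -0.44 (0.0369); leaving out single arrays gave 0 to 1, the 1 being Ctnna1 1436631_at without B6-D2 congenic replicate 3. For any strain difference the same covariate gave 1 call (Cdh2 1449244_at, adjusted p = 0.0389) and leaving out single arrays 0 to 1 (Ctnna1 1436631_at without B6-D2 congenic replicate 3, 0.0484). The cause of these changes was not tested. With the replicate block 0 members were called in every pair. Same-numbered arrays did not deviate together (correlations of -0.43 to 0.39, with 2 of 12 arrays closest to their own number), so the numbers were not taken as pairs; the block moved the count over all probe sets from 684 to 485 in B6-Lyst against C57BL/6J and from 94 to 0 in B6-albino against C57BL/6J, and ended the Gjc1 call (adjusted p = 0.055).

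Counts over all probe sets moved as follows. In B6-Lyst against C57BL/6J the 684 calls became 280 with only the 6 arrays of both strains and 252 to 902 with single arrays left out. In B6-Lyst against B6-albino the 498 became 209 with tissue marker covariates, 237 without the 3 arrays with high Krt12, 318 with the 60th percentile filter and 1184 with the RNA quality covariate. In B6-albino against C57BL/6J the 94 became 218 with quantile normalization, 177 with 75th percentile scaling, 160 without the intensity trend, 25 with the 60th percentile filter, 15 with only the 6 arrays, and 0 with tissue marker covariates or without the high Krt12 arrays. With 3 arrays a strain, dim probe sets near the filter value, as for Cdh3 and Cldn19, limit what can be seen.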
